A study of Mus musculus with 24 samples.

Results

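Immediate early genes are switched on within minutes of a stimulus, before any new protein is made, through kinase cascades that act on factors already bound to their promoters. Most of them encode transcription factors, and some encode proteins that slow growth or end the response. Growth factors such as PDGF induce them, and so do heat, injury and the enzymes and handling by which a tissue is taken apart into single cells, so that in sorted brain cells the state of the tissue and the preparation cannot be told apart. The members described here are Fos, Fosb, Jun, Junb, Egr1, Egr2, Egr3, Ier2, Atf3 and Btg2. They were taken by gene symbol, which gave 10 of the 55938 genes in the table. All 10 passed the filter on low counts in every fit.

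The mice carried gliomas raised by transfer of PDGFB, a ligand of the platelet-derived growth factor receptors, into the telencephalic ventricles of the embryo. Each of 12 brains gave 1 library of fluorescent glioma cells and 1 library of surrounding cells without fluorescence, 24 libraries in all. Of these brains 4 came from animals without symptoms, 33 to 34 days after transduction, with the codes 3228A, 3228B, 3228D and 3229B. Another 4 came from animals in the early symptomatic group, after 35 to 50 days, coded 3108C, 3108D, 3109D and 3145A. The last 4 were of the late symptomatic group, after 100 to 175 days, coded 3054A, 3054B, 3054C and 3057E. Both populations of a brain carry the same stage, and every group passed through dissection, dissociation and sorting; no undissociated tissue and no tumour-free brain was analysed here. Early and late were told apart by the suffix of the label, a split that also separates the days, so stage and days cannot be told apart. The fluorescent protein was red in 3057E and green in the other 11 tumours. The surrounding population is a mixture defined only by the lack of fluorescence.

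Totals ran from 9075510 to 15471149 counts per library. The glioma libraries held Pdgfra, the receptor that marks oligodendrocyte precursor cells (OPC), at 2683 to 6022 CPM, the count scaled to a common library size, and the surrounding libraries held it at 135.9 to 3804 CPM. Tmem119, a marker of microglia, lay at 0.591 to 29.2 CPM in glioma cells and at 34.0 to 474.6 CPM in surrounding cells. The summed level of 10 microglia markers in the glioma library of 3057E (1838 CPM) was above that in its own surrounding library (1649 CPM), whereas the other 11 glioma libraries held at most 647.9 CPM and the other 11 surrounding libraries at least 4173 CPM. Xist, transcribed from the inactive X chromosome, stood at 1588 CPM in the glioma library labelled 3108D and at 2.08 CPM in the surrounding library of that code, and at 1.89 and 1077 CPM in those labelled 3109D, so the codes of these animals go against the data in 1 population. Both belong to the early stage, so group comparisons are not touched by the exchange, but values paired by tumour are.

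The promoters of 4 members are shown because their genes behaved differently between the populations: Btg2, Atf3 and Junb were lower in every glioma library than in any surrounding library, and Egr2 did not pass the test. How many of all genes stand apart in this way was not counted. Promoter windows from RefSeq (GRCm38.p6) were used for 7 of the 10 members. Egr1, Egr3 and Ier2 had no window here and were not searched for motifs. Each sequence runs 5′ to 3′ on the gene's strand through the 250 bases before the RefSeq start, and the window of Atf3 ends 8 bases before it. Capitals mark a cyclic AMP response element (TGACGTCA) and an EGR motif (GCGNGGGCG) in Btg2, and in Egr2 a CArG box, the motif that serum response factor binds.
Btg2, chr1:134079156-134079405, minus strand: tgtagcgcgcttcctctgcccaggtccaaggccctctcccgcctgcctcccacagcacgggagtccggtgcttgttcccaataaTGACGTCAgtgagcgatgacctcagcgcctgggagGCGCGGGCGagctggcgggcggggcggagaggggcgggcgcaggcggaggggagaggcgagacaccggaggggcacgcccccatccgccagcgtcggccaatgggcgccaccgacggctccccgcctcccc
Atf3, chr1:191183341-191183583, minus strand: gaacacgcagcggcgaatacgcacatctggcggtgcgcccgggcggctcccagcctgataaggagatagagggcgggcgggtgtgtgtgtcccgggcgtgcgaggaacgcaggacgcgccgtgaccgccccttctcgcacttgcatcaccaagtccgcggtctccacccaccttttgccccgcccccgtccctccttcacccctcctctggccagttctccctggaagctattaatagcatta
Junb, chr8:84978749-84978998, minus strand: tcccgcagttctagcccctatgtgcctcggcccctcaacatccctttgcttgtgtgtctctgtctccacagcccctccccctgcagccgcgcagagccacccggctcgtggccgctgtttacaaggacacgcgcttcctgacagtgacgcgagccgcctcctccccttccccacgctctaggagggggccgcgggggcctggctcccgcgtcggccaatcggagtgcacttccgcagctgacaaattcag
Egr2, chr10:67537619-67537868, plus strand: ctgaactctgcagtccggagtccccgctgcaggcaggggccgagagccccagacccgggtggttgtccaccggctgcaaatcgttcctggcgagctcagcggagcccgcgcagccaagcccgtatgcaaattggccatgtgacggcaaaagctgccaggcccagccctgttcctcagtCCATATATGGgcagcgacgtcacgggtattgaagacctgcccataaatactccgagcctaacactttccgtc

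The motifs were searched on both strands in the 250 bases before each start. The cyclic AMP response element lay at bases -166 to -159 of Btg2, counted back from the start, and 1.55% of the 32851 promoters in the table held it. The EGR motif lay at -131 to -123 of Btg2 and at -50 to -42 of Fosb, and 4.70% of promoters held it. The CArG box lay at -72 to -63 of the Egr2 window shown, and 1.47% of promoters held one. Egr2 had 5 starts in the table, whose windows overlap in part, and 4 of the 5 held a CArG box. The windows from 67537619, 67537620 and 67537680 share the same box, CCATATATGG, and that from 67537316 holds another, CCTTTTTTGG. TATAAA lay at -33 to -28 of Fos and in 12.4% of promoters. The AP-1 motif TGANTCA, held by 6.75% of promoters, and the ETS motif CCGGAAG, held by 6.91%, were in none of the 11 windows of these members. The letters are a description of the windows, and no binding was measured.

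In the mouse GENCODE release M21 on GRCm38 the FOS family genes lie at chr12:85473890-85477273 (Fos) and chr7:19302696-19310051 (Fosb). The JUN family genes lie at chr4:95049034-95052222 (Jun) and chr8:84974484-84978718 (Junb). Egr1 lies at chr18:34859823-34864984, Egr2 at chr10:67535475-67542188 and Egr3 at chr14:70077203-70082614. Ier2 lies at chr8:84661331-84662852, Atf3 at chr1:191170296-191218039 and Btg2 at chr1:134075170-134079120. The promoter window of Atf3 shown above lies inside the span of its gene. On the minus strand that span begins at 191218039, and the bases before it were not searched for motifs. Exons of Junb overlap exons of Prdx2, a peroxiredoxin gene on the other strand, and exons of Jun overlap Junos, an antisense transcript. Because the strand setting of the counting is not given in the sources used here, reads of Junb and Prdx2 cannot be told apart where they overlap. Prdx2 was higher in glioma cells (log2 fold change 0.56 ± 0.14 SE, adjusted p 0.0018, edgeR's quasi-likelihood test), the opposite direction to Junb. Junos held 237 counts over the 24 libraries against 82936 for Jun.

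Glioma cells held less of most members than the cells around them. The levels of every library are plotted by population and stage.

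**Figure D1:**
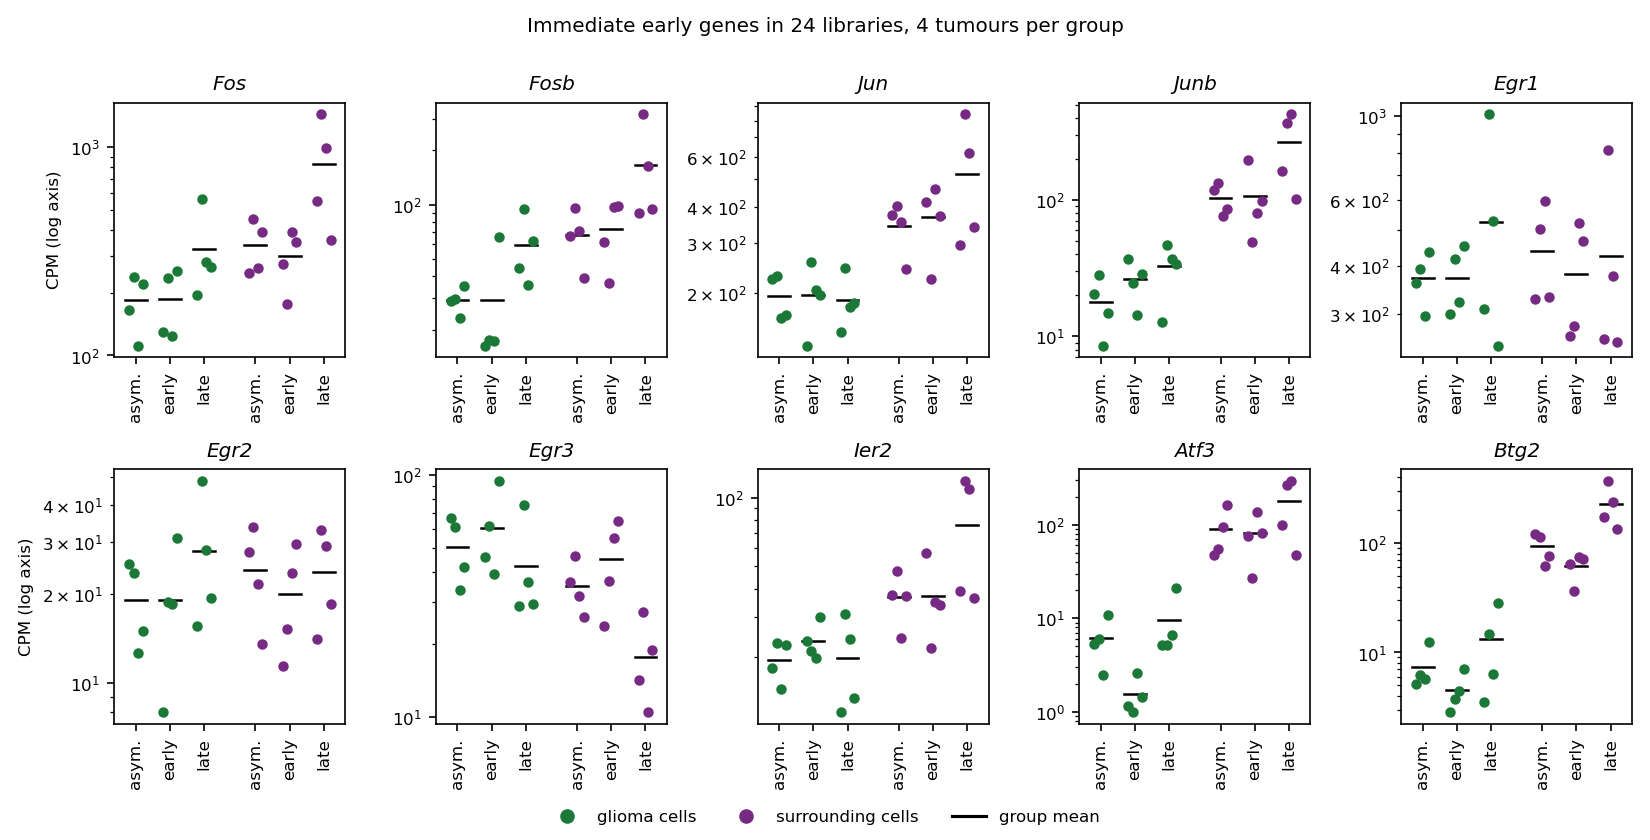
Each panel shows 1 gene: the vertical axis is CPM on a log scale, each point is 1 library, the horizontal groups are the 3 stages in glioma and in surrounding cells, and black lines are group means of 4 libraries. Points of the 2 populations stand fully apart for Junb, Atf3 and Btg2 and mix for Egr1 and Egr2. The share of all genes that stand fully apart was not counted.

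With all stages weighted equally, edgeR's quasi-likelihood test called 7 of the 10 members lower in glioma cells (Fos, Fosb, Jun, Junb, Ier2, Atf3 and Btg2) and 1 higher (Egr3), at an adjusted p under 0.05 by Benjamini and Hochberg over 18810 genes. Among all genes tested, 24.2% were called lower and 22.0% higher. The median log2 fold change of the 10 members was -1.11, beside 0.06 over all genes. Differences were not of one size: the fitted level in glioma cells was 0.0416 of that in surrounding cells for Atf3, 0.0696 for Btg2 and 0.173 for Junb, and 0.396 to 0.509 for the other 4 lower members.

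Atf3 encodes a stress-induced transcription factor of the ATF and CREB family. Its level was lowest at 0.992, median 5.16 and highest at 21.2 CPM in the 12 glioma libraries, and lowest at 27.2, median 88.2 and highest at 295.7 CPM in the 12 surrounding libraries. The populations did not overlap, and the glioma library was the lower of the pair in 12 of 12 tumours. The share of all genes without overlap was not counted. The log2 fold change was -4.59 ± 0.40 (SE; adjusted p 9.9e-09, edgeR), the most negative of the 10.

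Btg2 encodes an antiproliferative protein that binds the deadenylase complex shortening messenger RNA tails, and p53 is among its activators. It ran from 2.84 through a median of 6.01 to 28.3 CPM in glioma cells and from 36.3 through 95.3 to 374.0 CPM in surrounding cells. Here too every glioma library lay below every surrounding library, a separation that was not counted over all genes. The log2 fold change was -3.84 ± 0.30 (SE; adjusted p 3.1e-09, edgeR).

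Junb encodes a JUN protein that pairs with FOS proteins and can oppose Jun. It ran from 8.51 through a median of 26.3 to 47.0 CPM in glioma cells and from 49.5 through 111.0 to 425.7 CPM in surrounding cells, and the highest glioma library (3054B) stood just below the lowest surrounding library (3108D). The log2 fold change was -2.53 ± 0.29 (SE; adjusted p 3.0e-07, edgeR).

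Jun, Fos, Fosb and Ier2 differed less, and their populations overlapped. Jun, the main partner of FOS proteins in the AP-1 dimer, had a median of 191.1 CPM (131.2 to 256.9) in glioma cells and 373.9 CPM (224.5 to 841.8) in surrounding cells, a log2 fold change of -1.06 ± 0.17 (adjusted p 3.6e-05, edgeR). Fos had a median of 228.3 CPM (111.2 to 561.5) against 373.7 CPM (176.6 to 1434), a log2 fold change of -0.97 ± 0.23 (adjusted p 0.0017, edgeR). Both were lower in the glioma library of 11 of 12 tumours, with 3108D as the exception. That is 1 of the codes that go against Xist, and with the surrounding codes of 3108D and 3109D exchanged the count was 12 of 12.

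Fosb, a FOS relative known for a long-lived short form, had a median of 32.5 CPM (16.3 to 94.2) in glioma cells and 92.0 CPM (36.7 to 317.5) in surrounding cells. Its log2 fold change was -1.34 ± 0.27 (adjusted p 0.00040, edgeR). Ier2, a small nuclear protein, had a median of 21.9 CPM (11.5 to 30.9) against 37.2 CPM (21.9 to 118.8), with a log2 fold change of -1.16 ± 0.22 (adjusted p 0.00018, edgeR). Fosb and Ier2 were lower in glioma cells in 12 of 12 tumours.

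The EGR genes, zinc finger factors induced through serum response factor and MAP kinases, did not share that direction. Egr1 had a median of 376.8 CPM (246.2 to 1012) in glioma cells and 354.6 CPM (252.1 to 816.0) in surrounding cells. Its log2 difference was 0.01 with a 95% interval of -0.45 to 0.46 (adjusted p 0.99, edgeR). Egr2 had a median of 19.2 CPM (7.99 to 48.5) against 22.8 CPM (11.5 to 33.8), with a log2 difference of -0.06 and a 95% interval of -0.53 to 0.41 (adjusted p 0.86, edgeR). The intervals leave room for a difference of either sign, but not for one of the size seen in Jun, and the sign of both changes with the scaling.

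Egr3, a zinc finger relative of Egr1, was higher in glioma cells. It ran from 28.9 through a median of 43.9 to 94.99 CPM there and from 10.5 through 29.6 to 65.0 CPM in surrounding cells. The ranges overlapped, and the glioma library was the higher in 11 of 12 tumours and in 12 of 12 with the codes exchanged. The log2 fold change was 0.74 ± 0.22 (adjusted p 0.0077, edgeR).

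All 8 calls held in each of the 22 alternatives to this fit. Markers of several cell types also differed between the populations, and in bulk samples fewer cells of a type and less RNA per cell cannot be told apart. In glioma cells 10 of 10 microglia markers, 9 of 10 monocyte and macrophage markers, 10 of 10 endothelial markers, 10 of 10 mature oligodendrocyte markers and 8 of 8 T and NK cell markers were called lower, and 8 of 10 OPC markers higher. Summed microglia markers ran from 145.8 to 1838 CPM in glioma cells and from 1649 to 13050 CPM in surrounding cells, with no marker of that list at 0 in any library. The sums ran from 26.3 to 501.0 against 252.5 to 5033 CPM for monocytes and macrophages, from 3.29 to 124.3 against 104.6 to 323.6 CPM for endothelial cells and from 0.447 to 2.37 against 1.98 to 43.1 CPM for T and NK cells. Among the T and NK cell markers, Cd3e, Cd3g, Nkg7 and Trac were at 0 in every early and every late glioma library. The part of these cell types in the difference of the members was not tested.

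In tumour 3057E the summed microglia markers were 1838 CPM in the glioma library and 1649 CPM in the surrounding library. Atf3 in that pair stood at 21.2 against 47.2 CPM, Btg2 at 28.3 against 134.5 CPM and Junb at 33.7 against 102.4 CPM. These log2 differences were -1.12, -2.21 and -1.57; for Atf3 and Btg2 they were the smallest of the 12 tumours. The sums of other marker lists differed in that pair: monocyte and macrophage markers summed to 501.0 against 1264 CPM, endothelial markers to 6.12 against 107.6 CPM, mature oligodendrocyte markers to 493.9 against 4587 CPM, and T and NK cell markers to 0.578 against 43.1 CPM. Their part in these differences was not tested, and the pair is 1 tumour with no replicate. Without it the log2 fold changes were -5.00 ± 0.35 for Atf3, -4.19 ± 0.27 for Btg2 and -2.68 ± 0.29 for Junb (edgeR).

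**Figure D2:**
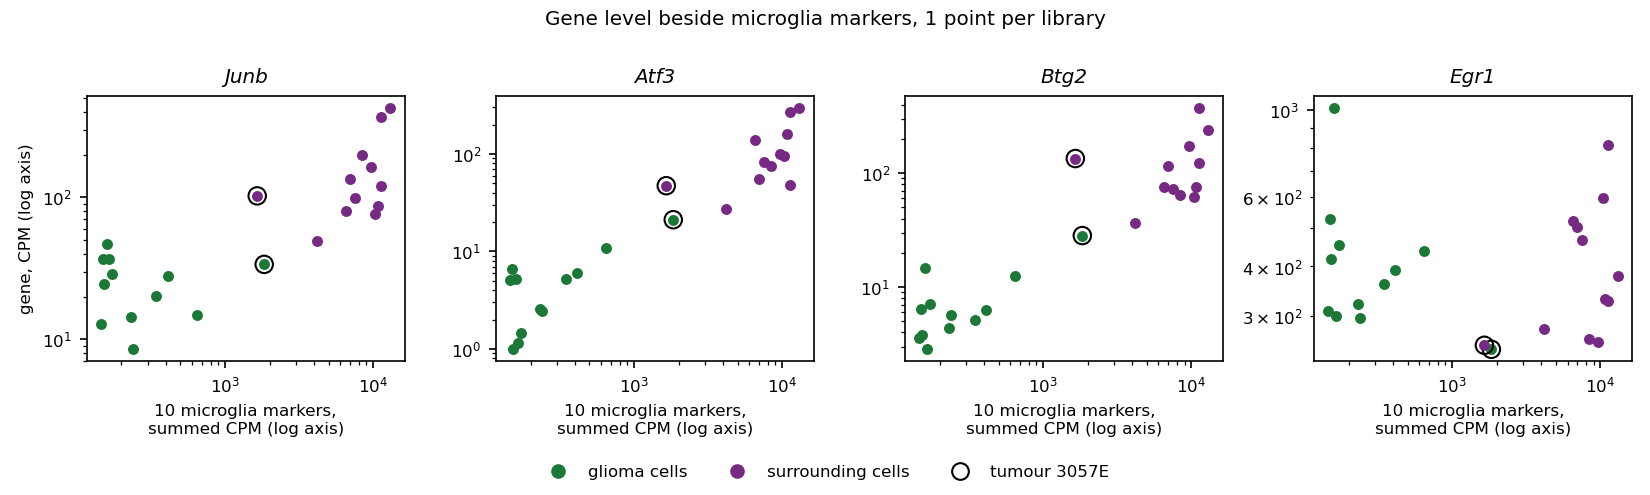
Each panel sets the CPM of 1 gene (vertical, log axis) against the summed CPM of 10 microglia markers (horizontal, log axis) in 24 libraries, green for glioma and purple for surrounding cells, with circles around tumour 3057E. The 2 circled libraries stand at 1838 and 1649 CPM of microglia markers, with the surrounding one higher in Junb, Atf3 and Btg2 and both near 250 CPM of Egr1.

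Levels of different genes can be compared only per length, here as CPM per kilobase of exon. In glioma cells Fos (median 97.1 CPM per kilobase), Egr1 (84.0) and Jun (59.9) stood above the other 7 members, whose medians ran from 2.19 for Btg2 to 14.4 for Ier2. The lowest Jun library (41.1) stood above the highest Ier2 library (20.3), while the ranges of all other neighbours in that order overlapped. In surrounding cells the order was Fos (158.9), Jun (117.2), Egr1 (79.1), Junb (48.2), Atf3 (41.0), Btg2 (34.7), Ier2 (24.4), Fosb (14.7), Egr3 (6.71) and Egr2 (6.69), with overlap between all neighbours. Atf3 and Btg2 held ranks 9 and 10 in glioma cells and ranks 5 and 6 in surrounding cells, and Egr2 held ranks 7 and 10.

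Ratios within a library do not depend on the scaling between libraries. The ratio of Atf3 to Jun per kilobase was 0.00572 to 0.169 in glioma cells and 0.179 to 0.987 in surrounding cells, without overlap. The ratio of Junb to Jun had a median of 0.151 (0.0720 to 0.388) against 0.450 (0.242 to 0.957), with overlap. The ratio of Fosb to Fos, 0.0617 against 0.0838 at the median, and that of Egr2 to Egr1, 0.0687 against 0.0727, lay close together in the 2 populations.

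Stage by stage, the same fit called 3 members lower in glioma cells at the asymptomatic stage (Junb, Atf3 and Btg2), beside 12.5% of all genes called lower and 1.30% higher. At the early symptomatic stage it called 4 lower, Jun being added at an adjusted p of 0.0496, beside 12.4% of all genes lower and 1.06% higher. At the late symptomatic stage it called 7 lower and Egr3 higher, beside 19.9% and 15.4% of all genes. Fos, Fosb and Ier2 passed in the late comparison, at log2 fold changes of -1.36 ± 0.41, -1.49 ± 0.47 and -1.93 ± 0.39 (adjusted p 0.013, 0.018 and 0.00068, edgeR). Egr3 was higher there by 1.25 ± 0.38 (adjusted p 0.014, edgeR). With the tumour code as a block, edgeR called 5 members at the asymptomatic stage (Fosb, Junb, Ier2, Atf3 and Btg2), beside 17.7% of all genes. With the surrounding codes of 3108D and 3109D also exchanged it called 7 there, Fos and Jun being added, beside 19.9% of all genes. In the early comparison the block called 5 (Fosb, Jun, Junb, Atf3 and Btg2) beside 15.3% of all genes, and 6 with the codes exchanged, Fos being added, beside 17.1%. Without tumour 3054C the late count fell to 5, with Fos, Fosb and Egr3 lost, beside 23.3% of all genes called. Without both 3108D and 3109D the early count fell to 2, beside 6.56% of all genes.

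**Figure D3:**
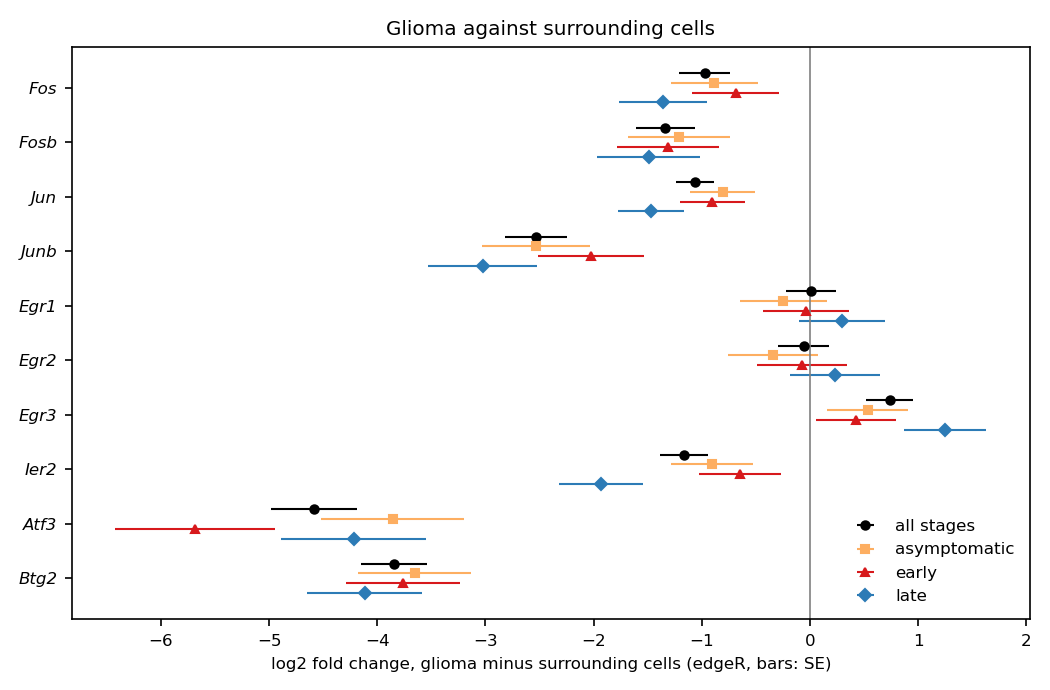
Log2 fold change of glioma minus surrounding cells (horizontal) for each gene (vertical), over all stages and at each stage, from edgeR, with bars of 1 SE. Atf3, Btg2 and Junb lie at -2.0 or below at every stage, and the points of Egr1 and Egr2 lie on both sides of 0.

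Passing at 1 stage and not at another is no difference between stages. The test of that difference, an interaction of stage and population in edgeR, called 0 of the 10 members in each of its 3 comparisons, as it called 0% of all genes for early against asymptomatic, 0% for late against asymptomatic and 0% for late against early. At an unadjusted p under 0.05 the counts of members were 0, 0 and 1, beside 290, 1585 and 1167 of 18810 genes. The 1 was Ier2, with a log2 difference of glioma minus surrounding stage effects of -1.29 ± 0.54 (unadjusted p 0.025, adjusted p 0.76, edgeR). DESeq2 and limma voom also called 0 members in each comparison. Of all genes, DESeq2 called 0.00532%, 0.0958% and 0.229% in the same order, and limma voom 0%, 6.84% and 5.98%.

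In surrounding cells the late tumours held the highest levels of several members. Btg2 stood at 64.2, 36.3, 75.2 and 72.1 CPM in early tumours (3108C, 3108D, 3109D and 3145A) and at 173.3, 374.0, 237.3 and 134.5 CPM in late tumours (3054A, 3054B, 3054C and 3057E). The asymptomatic libraries (3228A, 3228B, 3228D and 3229B) held 122.7, 114.7, 61.9 and 75.9 CPM. Every late library was above every early and every asymptomatic library. Late against early, Btg2 rose by 1.85 ± 0.35 on the log2 scale (adjusted p 0.027, edgeR), 1 of 10 members called, beside 1.48% of all 17616 genes tested in either direction.

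Fos, Fosb, Junb and Ier2 had log2 differences of 1.44 ± 0.42, 1.14 ± 0.43, 1.28 ± 0.48 and 0.99 ± 0.41 in that comparison and did not pass (adjusted p 0.12, 0.21, 0.21 and 0.26, edgeR). Fos in surrounding cells was 275.5, 176.6, 393.3 and 348.5 CPM in early tumours and 551.0, 1434, 992.4 and 356.1 CPM in late tumours. The late library of 3057E was inside the early range, and the other 3 were above it. Egr3 had the opposite sign: 23.8, 36.5, 54.8 and 65.0 CPM in early tumours and 14.2, 27.3, 10.5 and 19.1 CPM in late tumours, a log2 difference of -1.38 ± 0.35 (adjusted p 0.078, edgeR). Only the late library of 3054B overlapped the early range of Egr3.

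These counts turned on single tumours. Without 3057E, 6 members passed late against early: Fos, Fosb, Junb, Ier2 and Btg2 higher and Egr3 lower, and the share of all genes called in that fit was 18.9% against 1.48% with all tumours. Without 3054B, 3054C, 3108D, 3109D or 3145A, 1 at a time, 0 passed, and Btg2 kept log2 differences of 1.53 to 1.964. The shares of all genes called in those fits are not given here, so these counts are not read as a result about the members. DESeq2 called 3 members (Fos, Egr3 and Btg2) beside 6.69% of all genes, and limma voom 6 beside 29.5%.

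Single libraries were high or low for several members at once. The surrounding library of 3054B was the highest of 12 for 6 members (Fos, Fosb, Jun, Egr1, Ier2 and Btg2) and that of 3054C for Junb and Atf3. That of 3108D was the lowest for 7 members. Among glioma libraries, 3054B was again the highest for 6 members (Fos, Fosb, Junb, Egr1, Egr2 and Ier2). The share of all genes at their highest or lowest in these libraries was not counted. TMM scaling factors, of which a lower one gives a higher CPM, were 0.752 and 0.751 in surrounding 3054B and 3054C and 1.09 in 3108D. Surrounding 3229B, at 0.757, was the highest for 0 members. The part of the scaling in these ranks was not tested.

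Some markers of infiltrating cells were higher in late than in early surrounding libraries. Late against early, 4 of 10 monocyte and macrophage markers (Ccr2, Ms4a7, Plac8 and Ly6c2), 4 of 8 T and NK cell markers (Cd3e, Cd3g, Nkg7 and Cd8a) and 1 of 5 tested neutrophil markers (S100a8) were called higher. Summed monocyte and macrophage markers were 331.9 to 903.3 CPM in early and 1264 to 5033 CPM in late libraries, without overlap, and 252.5 to 1480 CPM in asymptomatic libraries. The highest of these sums belonged to 3054C. T and NK cell sums were 1.98 to 4.53 CPM in early and 7.18 to 43.1 CPM in late libraries. Asymptomatic libraries held 6.75 to 16.8 CPM, which overlaps the late range. Neutrophil sums were 66.4 to 107.8 CPM in early and 119.7 to 718.5 CPM in late libraries. In asymptomatic libraries they were 116.7 to 179.2 CPM, again with overlap. Summed OPC markers ran from 6042 to 12360 CPM in early and from 678.2 to 10640 CPM in late libraries. Their part in the change of Btg2 was not tested.

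Against asymptomatic tumours, surrounding cells of late tumours had 0 members called by edgeR, beside 0% of all genes. At an unadjusted p under 0.05 were 6 members, beside 2822 of 17616 genes. DESeq2 called 2 members (beside 5.83% of all genes) and limma voom 5 (beside 23.3%). Without 3057E edgeR called 5 (Fos, Fosb, Junb, Ier2 and Btg2), all higher, beside 7.58% of all genes called higher and 8.83% lower. With all tumours the log2 differences were 1.28 ± 0.41 for Fos, 1.28 ± 0.43 for Fosb, 1.34 ± 0.48 for Junb, 1.04 ± 0.41 for Ier2 and 1.28 ± 0.34 for Btg2, with adjusted p from 0.15 to 0.25 (edgeR). Egr3, the remaining member at an unadjusted p under 0.05, went the other way, at -0.98 ± 0.35 (adjusted p 0.21, edgeR). Early against asymptomatic, edgeR called 0 members, again beside 0% of all genes. There 0 members were at an unadjusted p under 0.05, beside 645 of 17616 genes. DESeq2 and limma voom called 0 members each, beside 0.0571% and 0% of all genes. The comparisons of late with early and of late with asymptomatic share the late libraries.

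**Figure D4:**
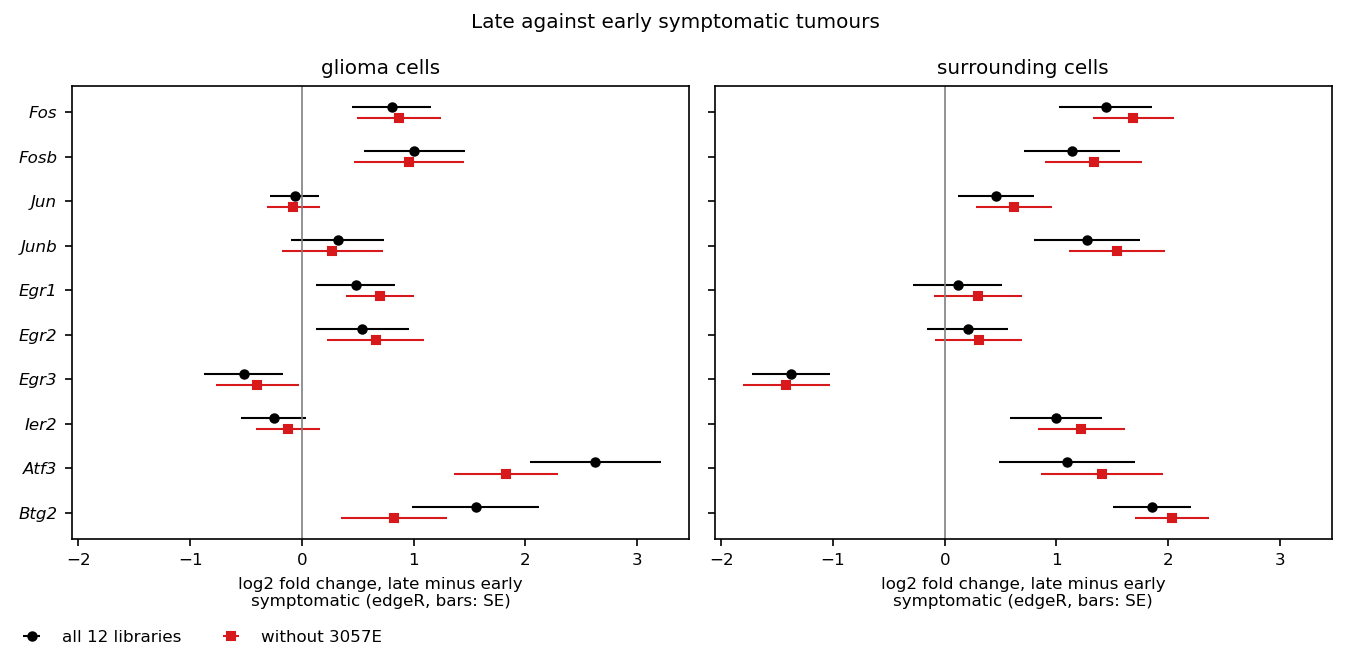
Log2 fold change of late minus early symptomatic tumours (horizontal) for each gene (vertical) in glioma cells (left) and surrounding cells (right), from edgeR with bars of 1 SE, over all 12 libraries of a population (black) and without tumour 3057E (red). In surrounding cells Btg2 lies highest at 1.85 and Egr3 lowest at -1.38, and in glioma cells Atf3 drops from 2.63 to 1.83 when 3057E is left out.

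In glioma cells no member passed between stages. Early against asymptomatic, edgeR called 0 members and 0% of 16494 genes. At an unadjusted p under 0.05 was 1 member, Atf3, beside 810 of all genes. DESeq2 and limma voom called 0 members there, beside 0% and 0.00606% of all genes. Late against asymptomatic, edgeR called 0 members beside 0.158% of all genes. Fos and Fosb were the 2 members at an unadjusted p under 0.05, beside 2445 of 16494 genes. DESeq2 called 0 members beside 578 of 16354 genes, and limma voom called 0 beside 2972 of 16494 genes. Late against early, edgeR called 0 members beside 0.273% of all genes. At an unadjusted p under 0.05 were 4 members (Fos, Fosb, Atf3 and Btg2), beside 3243 of 16494 genes. DESeq2 called 1 member (Atf3) beside 6.05% of all genes, and limma voom 2 (Fosb and Atf3) beside 15.7%.

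Atf3 came nearest in glioma cells. It stood at 5.26, 6.04, 2.47 and 10.9 CPM in asymptomatic tumours (3228A, 3228B, 3228D and 3229B), at 1.15, 0.992, 2.60 and 1.45 CPM in early tumours and at 5.15, 5.18, 6.59 and 21.2 CPM in late tumours. Late and early libraries did not overlap, and only 3228D of the asymptomatic libraries fell inside the early range. Late against early, the log2 difference was 2.63 ± 0.59 (adjusted p 0.073, edgeR). Without 3057E it was 1.83 ± 0.46 with a lower adjusted p of 0.019, in a fit that called 17.2% of all genes. Early against asymptomatic, the log2 difference was -1.98 ± 0.58 (unadjusted p 0.0045, adjusted p 0.94, edgeR).

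Markers of other cell types also varied among these libraries. Summed microglia markers were 239.5 to 647.9 CPM in asymptomatic, 151.9 to 230.6 CPM in early and 145.8 to 1838 CPM in late glioma libraries. In the late libraries 3054A, 3054B and 3054C that sum was 145.8, 158.6 and 150.8 CPM, and in 3057E it was 1838 CPM. Summed endothelial markers were 3.29 to 13.05 CPM in early glioma libraries, 15.1, 124.3 and 74.8 CPM in 3054A, 3054B and 3054C, and 6.12 CPM in 3057E. Summed monocyte and macrophage markers were 30.2 to 57.6 CPM in early libraries, 26.3 to 31.0 CPM in 3054A, 3054B and 3054C, and 501.0 CPM in 3057E. Their part in the values of Atf3, Fos, Fosb and Btg2 was not tested. Fos in glioma cells was 129.4, 236.3, 123.9 and 254.0 CPM in early tumours and 196.0, 561.5, 280.5 and 265.7 CPM in late tumours, a log2 difference of 0.80 ± 0.36 (adjusted p 0.24, edgeR). Fosb had a log2 difference of 1.004 ± 0.45 and Btg2 of 1.55 ± 0.57 (adjusted p 0.25 and 0.18, edgeR).

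Spread within groups also differed between members. The SD of log2(CPM + 1) around stage means was smallest for Jun in glioma cells, at 0.33, and largest for Atf3 in surrounding cells, at 1.02. For the other members it ran from 0.43 (Ier2 in glioma cells) to 0.79 (Btg2 in glioma cells).

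The genes around these members in the pathway were read from 7 lists of 93 genes, of which 92 were tested. In glioma against surrounding cells 49 were called lower and 9 higher, and the median log2 fold change was -0.49, beside 24.2% of all genes called lower, 22.0% called higher and a median of 0.06. The counts of single lists are read against those shares, and nothing particular to a list is drawn from them. Feedback and RNA decay genes held 13 lower and 1 higher of 17. Among them were Zfp36, which binds AU-rich messages for decay (log2 fold change -4.26 ± 0.38), Dusp1, a phosphatase of MAP kinases (-3.61 ± 0.36), and Btg1, a relative of Btg2 (-1.78 ± 0.20; adjusted p at most 2.5e-07 for these 3, edgeR). Their medians in glioma and surrounding cells were 11.6 and 298.5 CPM for Zfp36, 12.4 and 96.0 CPM for Dusp1 and 57.5 and 182.4 CPM for Btg1.

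Of 10 other AP-1 and CREB-like factors 8 were lower and none higher. Those with the smallest p were Batf3 and Batf, AP-1 factors of lymphoid and dendritic cells, and Mafk, a small MAF protein that pairs with other leucine zipper factors. Batf and Batf3 had glioma medians of 0.0822 and 0.154 CPM, with some glioma libraries at 0, against 3.35 and 2.49 CPM in surrounding cells. Mafk had a log2 fold change of -1.83 ± 0.31 (adjusted p 4.9e-05, edgeR). Of 14 other immediate early transcription factors 6 were lower, 1 was higher and 7 did not pass. Klf2 (-4.32 ± 0.39) and Klf4 (-3.62 ± 0.35), Krüppel-like factors expressed in endothelial and myeloid cells, and Ier5 (-2.35 ± 0.22) had the smallest p (adjusted p at most 3.7e-08, edgeR). The 1 higher was Egr4, the remaining EGR gene, at 1.05 ± 0.29 (adjusted p 0.0049, edgeR), which was named after its value was seen.

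Of 11 tested SRF and YAP targets and cytoskeletal genes 7 were lower and 1 higher. Plk3, a stress-responsive kinase, fell by 2.69 ± 0.26, Rhob, an early-induced small GTPase, by 1.64 ± 0.19 and Ccn2, a matricellular protein, by 4.13 ± 0.56 on the log2 scale (adjusted p at most 3.4e-06, edgeR). Of 10 heat shock genes 4 were lower, 1 was higher and 5 did not pass. Hspa1a and Hspa1b, the inducible HSP70 genes, had log2 fold changes of -4.12 ± 0.43 and -4.25 ± 0.43 (adjusted p at most 8.0e-08, edgeR). They are near-identical copies whose reads the counting divides by estimate, so the split between them is uncertain. Dnajb1, an HSP40 cochaperone, had -0.70 ± 0.18 (adjusted p 0.0026, edgeR).

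Of 14 genes of the ATF4 and DNA damage responses 4 were lower and 1 higher, near the share of all genes called lower, so the count is no result about that list. Ppp1r15a, which ends the stress block on translation, had a log2 fold change of -2.12 ± 0.31 and Gadd45b, a growth arrest gene, of -2.01 ± 0.32, whereas Asns, the asparagine synthetase that ATF4 induces, had 1.24 ± 0.19 (adjusted p at most 2.5e-05, edgeR). Of 16 upstream kinases and factors 7 were lower and 4 higher. Rps6ka1 (RSK1) had -3.63 ± 0.25, Mapk3 (ERK1) -1.72 ± 0.17 and Mapk14 (p38 alpha) -0.86 ± 0.11 (adjusted p at most 2.0e-06 for these 3, edgeR). Between stages, Ier3 was the 1 gene of these lists that passed, late against asymptomatic in glioma cells, at 1.61 ± 0.24 (adjusted p 0.023, edgeR).

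The genes whose levels ran most like the mean of the 10 members differed between the populations. Over the 12 surrounding libraries they included Pnrc1 (Pearson r 0.958), Zfand5 (0.929), Klf6 (0.923) and Klf4 (0.902), of 10755 genes at a mean log2(CPM + 1) of at least 3. Without the 2 libraries farthest from the median, 3054B and 3054C, these r were 0.712 to 0.814. Over the 12 glioma libraries they were Ifngr2 (0.930), Pld3 (0.895), Lgals9 (0.844), Galns (0.841) and Fam20b (0.837), of 10024 genes, and 0.585 to 0.885 without 3054B and 3228D. These are the highest of many correlations over few libraries that share depth and scaling, and they are given as a description.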

How the data were processed

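RNA was sequenced from 12 tumours, each sorted into glioma and surrounding cells. The authors deposited expected counts, which the submitters' processing notes tie to STAR 2.7.5c, RSEM 1.3.1 and the build GRCm38. Annotation and strand setting are not given in the sources used here. PolyA RNA was the input of a total RNA kit, per the labels' protocols.

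Expected counts were rounded. edgeR 4.0.16 in R 4.3.3 was run with TMM scaling, a filter at a minimum count of 10 and the robust quasi-likelihood test. All 24 libraries with 6 group means served for the populations and interactions, and the 12 libraries of a population for stages. Benjamini-Hochberg adjustment ran over all genes tested, with calls at adjusted p under 0.05. CPM are TMM-scaled. Fold change errors are standard errors, and 95% intervals are normal approximations from them. Median log2 fold changes are over tested genes. The fit was tested on simulated data.

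Totals of 9075510 to 15471149 counts set the counting precision. No libraries of a group were copies, as chi-square per degree of freedom was at least 19.8. The numbers pair the samples because the labels give both libraries of a code to 1 animal. Deviations from group means correlated at 0.078 to 0.48 within a code, except for 3108D and 3109D (0.042 and 0.025). With those codes exchanged the correlations were 0.47 and 0.36. Group members came from separate animals, per the codes.

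The members, gene lists and alternatives were chosen with earlier results of these data known. Named are the 10 members, the 3 genes of each pathway list with the smallest p, called pathway genes between stages, 5 genes of like pattern per population, and check genes; 1 gene of like pattern in surrounding cells is not reported here. Alternatives used limma 3.58.1 (voom), DESeq2 1.42.0, other scalings and filters, a block by tumour and tumours left out. The mouse GENCODE release M21 matched 98.6% of identifiers and gave positions and lengths.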

Additional observations from a re-analysis of the deposited data

Results flagged for a closer look

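In 4 of 60 groups of 4 libraries, 1 library stood apart from the other 3 by a gap past Dixon's 95% critical value, where chance gives about 1 in 20. Fosb in early glioma cells was 66.4 CPM in 3145A and 16.3 to 17.7 CPM in the other 3. Egr3 in late glioma cells was 75.04 CPM in 3054B and 28.9 to 36.3 CPM in the others. Atf3 in late glioma cells was 21.2 CPM in 3057E and 5.15 to 6.59 CPM in the others. Btg2 in asymptomatic glioma cells was 12.5 CPM in 3229B and 5.18 to 6.29 CPM in the others. The glioma libraries of 3057E and 3229B also held the highest summed microglia markers of their groups, 1838 and 647.9 CPM, and the part of that in these values was not tested.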

How the results depend on the processing

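The count of 8 members called between glioma and surrounding cells was the same in all 22 alternatives. At the asymptomatic stage 5 were called by DESeq2, 6 by limma voom, 5 with the tumour code as a replicate block, 7 with that block and the surrounding codes of 3108D and 3109D exchanged, and 6 from the 8 libraries of the stage alone. Of all genes, 13.8% were called at that stage in the main fit, 17.4% by DESeq2, 28.9% by limma voom and 17.7% with the block. The block moved no other count of members by more than 1.5 times. At the early stage 2 were called without 3108D and 3109D. At the late stage 5 were called from its 8 libraries alone and 5 to 8 with a tumour left out. In glioma cells, late against early, 1 was called with no filter, 1 by DESeq2, 2 by limma voom and 0 to 1 with a tumour left out. The shares of all genes were 0.436% with no filter, 6.05% by DESeq2 and 15.7% by limma voom, against 0.273% in the main fit. In surrounding cells, late against asymptomatic, DESeq2 called 2 (5.83% of all genes), limma voom 5 (23.3%), and fits with a tumour left out 0 to 5. Late against early there, DESeq2 called 3 (6.69% of all genes) and limma voom 6 (29.5%). The fit without 3108D and 3109D called 0 there, and fits with a tumour left out 0 to 6. Counts at a stage or between stages that stand here without a share of all genes are not read as a result about the members. The cause of these moves was not tested.

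The sign of Egr1 and Egr2, never called, turned. Over all stages the log2 difference of Egr1 was -0.0570 with DESeq2 size factors, -0.0084 with no filter, -0.0770 with the stricter filter (minimum count 50), -0.0570 with DESeq2, -0.0958 with limma voom, -0.0205 without 3108D and 3109D, and -0.122 to 0.0930 with a tumour left out. At the early stage it was 0.0495 with library totals, 0.0118 with the replicate block, 0.0106 with the exchanged block, 0.0141 without 3108D and 3109D, and -0.22 to 0.22 with a tumour left out. Egr2 was 0.0897 over all stages and 0.0058 at the early stage with library totals, and -0.182 to 0.0357 there with a tumour left out. Library totals moved the median of all genes from 0.06 to 0.21. Depth limits Atf3 most, with 10 to 33 counts per library in early glioma cells.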
